A study of Paxillus involutus with 12 samples.

Results

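A small set of transcripts of the ectomycorrhizal fungus Paxillus involutus stood lower on days 6 and 8 of carbon starvation than on day 2, and was back near its day 2 level on day 13. The set holds 84 of the 12214 array sequences, or 0.688%. Its members were chosen by their measured values. The lower of the day 2 and day 13 means had to lie at least 0.5 log2 units above the higher of the day 6 and day 8 means, and the day 13 mean had to lie within 0.5 of the day 2 mean. The dip and the return are therefore what defines the set, and they are given below as a description with no test.

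Paxillus involutus is a basidiomycete that forms ectomycorrhiza, a root symbiosis in which the tree supplies the fungus with sugar and the fungus passes on nitrogen and other nutrients from the soil. A fungus cut off from carbon is known to turn to its own cell contents. Autophagy, the delivery of cytoplasm and organelles to the vacuole for breakdown, is one known route of such recycling, and parts of a mycelium can be emptied while others stay alive. The sequences on this array carry numbers and no gene names, and none of the 12214 numbers occurred among the 18033 genes of the available reference table, so no role is given here to any member.

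Strain ATCC 200175 was grown without a host on glass beads in Minimum Melin Norkrans medium whose C/N ratio had been set to 3 by adding ammonium; 10 days of pre-culture and a day without nitrogen came first. Mycelium was harvested on days 2, 6, 8 and 13, with 3 biological replicates per day, each a pool of 2 cultures, and total RNA was hybridised in 1 colour (Cy3) to the 12 subarrays of a single NimbleGen chip. All 4 groups share this strain, medium and pre-treatment and differ in the day of harvest. No carbon-fed cultures of the same ages were analysed here, so starvation and culture age cannot be told apart. Fewer living cells and less RNA per cell cannot be told apart either in RNA from whole mycelium.

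The deposited values are log2 expression values from RMA, which corrects background, normalizes the arrays to each other and summarises the probes of each sequence. Array medians lay between 11.35 and 11.38, and replicate arrays of a day correlated across sequences at r = 0.989 to 0.998. By the labels, the arrays of day 2 lie at chip positions 1 to 3, those of days 6 and 8 at positions 4 to 9 and those of day 13 at positions 10 to 12. A dip in the middle of the time course is thus also a dip at the middle position numbers, and the effect of position and the effect of day cannot be told apart. The labels give 2 conflicting position numbers for the samples of days 6 and 8. The membership rule treats these 2 days alike and does not depend on which is which.

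Falling and coming back was the less common course. At days 6 and 8, 1053 sequences lay at least 0.5 below their day 2 mean. Of these, 813 (77.2%) were still at least 0.5 below day 2 at day 13, and 15 had passed it by at least 0.5. A further 225 were within 0.5 of day 2, but 141 of them had risen by less than 0.5 above the higher middle day. The remaining 84, or 7.98% of the 1053, are the members. Seen from the end of the time course, 1266 sequences lay at least 0.5 lower on days 6 and 8 than on day 13, and the members made up 6.64% of them. The mirror image, a peak on days 6 and 8 defined with the same limits, held 151 sequences, which were 15% of the 1007 sequences that lay at least 0.5 above day 2 on both middle days.

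**Figure D1:**
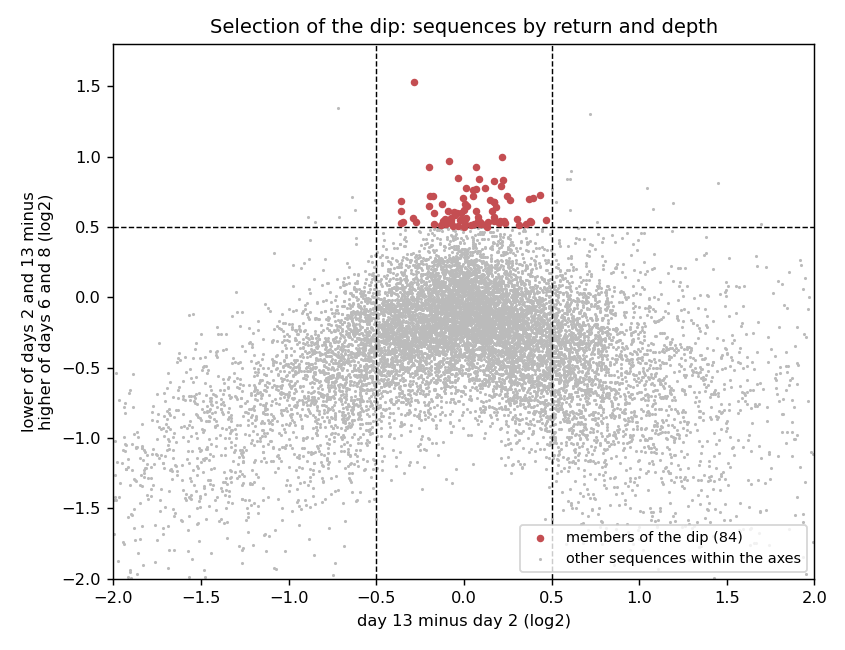
Each point is 1 sequence, with the day 13 mean minus the day 2 mean on the x axis. The y axis gives the lower of the day 2 and day 13 means minus the higher of the day 6 and day 8 means. Both axes are in log2 units. The 151 sequences of the mirror-image peak and the sequences beyond the axes are not drawn. Dashed lines mark the limits of 0.5; the 84 members, in red, fill the box above the y limit and between the x limits, most of them close to its lower edge and only 1 above 1 on the y axis.

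The dips were shallow. The median depth was 0.58 on the log2 scale, 1.49-fold, and the quartiles were 0.54 and 0.70. Of the 84 members, 44 had a depth under 0.6, 14 a depth of at least 0.75, and 1 a depth of at least 1. The members' day means had a median of 11.24 (day 2), 10.70 (day 6), 10.53 (day 8) and 11.42 (day 13). The median change was -0.68 for day 6 minus day 2 and -0.78 for day 8 minus day 2. It was 0.71 for day 13 minus day 6 and 0.83 for day 13 minus day 8. Over all 12214 sequences the same medians were 0.00, 0.02, 0.00 and -0.01. For a difference between 2 days the standard error of the members had a median of 0.108.

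The return was close for most members. Day 13 minus day 2 had a median of 0.03 and ran from -0.36 to 0.47, and 67 of the 84 members were within 0.25 of their day 2 mean. Day 13 lay above day 2 in 49 members and below it in 35. The sequences with the largest overshoot that the limit allowed were paxillus_8690, paxillus_11033 and paxillus_12277, at 0.47, 0.43 and 0.39. paxillus_8690 had 10.82, 10.80 and 10.79 at day 2, 10.17, 10.32 and 10.17 at day 6, 10.28, 10.16 and 10.31 at day 8, and 11.25, 11.27 and 11.29 at day 13. Its replicates were tight, and all 3 day 13 arrays lay above all 3 day 2 arrays. Just beyond the limit lay paxillus_1280 at 0.50, paxillus_8460 at -0.51 and paxillus_11327 at 0.52, each with a dip as deep as that of many members.

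The depth limit lay in the upper tail of the distribution over all sequences, whose upper quartile was -0.08. Sequences lay close to the limit on both sides. The members nearest to it were paxillus_1127 and paxillus_10014, both with a depth of 0.501, and paxillus_7980 with 0.507. The sequences nearest to it on the other side were paxillus_9285 with 0.499, paxillus_10934 with 0.498 and paxillus_10880 with 0.496. These differences are far smaller than that standard error of 0.108. With a limit of 0.25 the rule gave 458 sequences, with 0.75 it gave 14 and with 1 it gave 1.

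The separation held array by array for nearly all members. In 80 of the 84, all 6 arrays of days 6 and 8 lay below all 6 arrays of days 2 and 13. Over all sequences this was so in 5.42%, and since the members were chosen on the means of these same arrays, nothing is read from the comparison. The 4 members with overlapping arrays were paxillus_7947, paxillus_13399, paxillus_11576 and paxillus_7980, named after their values were seen. paxillus_7947 had 12.12, 11.47 and 11.57 at day 2, 11.31, 11.47 and 10.71 at day 6, 11.15, 11.11 and 10.87 at day 8, and 11.82, 12.13 and 12.12 at day 13, so that 1 day 6 array reached the lowest day 2 array. In a limma fit over all sequences with Benjamini-Hochberg adjustment, members past an adjusted p of 0.05 numbered 81 for lower at day 6 than at day 2 (23.1% of all sequences) and 84 for lower at day 8 than at day 2 (28.5%). For higher at day 13 than at day 6 the count was 82 (29.6%), and for higher at day 13 than at day 8 it was 84 (25.8%). The rule used these contrasts, so their counts add nothing to the choice of members. The members that missed the threshold were paxillus_13399, paxillus_13506 and paxillus_2210 for day 6 against day 2, and paxillus_13399 and paxillus_11576 for day 13 against day 6. Day 13 and day 2 differed past the threshold in 11 members that were higher at day 13 (34.4% of all sequences) and in 6 that were lower (31.4%), all by less than the 0.5 that the rule allows.

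**Figure D2:**
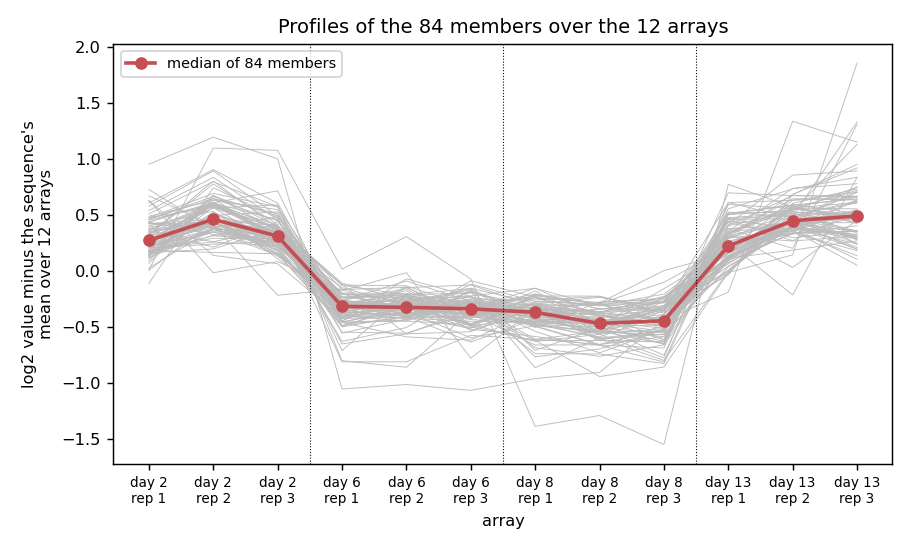
Each grey line is 1 of the 84 members and shows its log2 value on each of the 12 arrays minus its own mean over the 12; the red line is the median over the members, and lines join arrays only so that a member can be followed. The median lies between -0.47 and -0.32 on the 6 arrays of days 6 and 8 and between 0.22 and 0.49 on the 6 arrays of days 2 and 13.

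The deepest dip was that of paxillus_11146. Its log2 values were 10.59, 10.83 and 10.64 on the day 2 arrays, 8.58, 8.62 and 8.57 at day 6, 8.68, 8.73 and 9.20 at day 8, and 9.45, 10.97 and 10.79 at day 13. The day 6 arrays were tight, with an SD of 0.03, while at day 13 the first array was more than 1 log2 unit below the other two. Its depth was 1.53, or 2.89-fold, and the return to within 0.28 of day 2 rests on a day 13 mean of 10.40 ± 0.83 (SD, n = 3).

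paxillus_1482 combined a deep dip with a high level. Its values were 13.48, 13.93 and 13.57 at day 2, 12.35, 12.35 and 12.58 at day 6, 12.55, 12.62 and 12.84 at day 8, and 13.57, 14.01 and 14.05 at day 13. The middle arrays were all lower than the outer ones, by 0.99 in the means the rule compares, and the sequence stood at percentile 89.9 of mean level among all sequences. paxillus_1267, near the middle of the level range, had 12.09, 12.38 and 12.16 at day 2, 11.12, 11.00 and 10.97 at day 6, 11.23, 10.97 and 11.05 at day 8, and 11.87, 12.11 and 12.06 at day 13. Its SDs of 0.08 to 0.15 were small against a depth of 0.93.

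Both paxillus_12999 and paxillus_5767 were dim sequences whose replicates spread little against the depth of their dips. paxillus_12999 had 9.00, 9.30 and 8.92 at day 2, 8.01, 8.10 and 7.95 at day 6, 7.88, 7.80 and 7.65 at day 8, and 8.93, 8.96 and 9.07 at day 13. paxillus_5767 had 8.53, 8.70 and 8.55 at day 2, 7.60, 7.77 and 7.76 at day 6, 7.60, 7.44 and 7.51 at day 8, and 8.43, 8.65 and 8.60 at day 13. In both, the middle and outer arrays were clearly apart, with depths of 0.97 and 0.85 and day 13 means within 0.09 and 0.03 of day 2.

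The remaining 3 of the 8 deepest dips were paxillus_11039, paxillus_11859 and paxillus_11795. paxillus_11039 had 9.62, 9.81 and 9.68 at day 2, 8.61, 8.73 and 8.98 at day 6, 8.30, 8.57 and 8.36 at day 8, and 9.16, 9.66 and 10.49 at day 13. paxillus_11859 had 10.59, 10.79 and 10.60 at day 2, 9.56, 9.65 and 9.67 at day 6, 9.88, 9.73 and 9.85 at day 8, and 10.18, 10.89 and 11.16 at day 13. In both sequences the day 13 arrays spanned more than the depth of the dip, with SDs of 0.67 and 0.51 against depths of 0.93 and 0.84. paxillus_11795 had 10.81, 11.31 and 10.99 at day 2, 10.01, 10.13 and 10.47 at day 6, 9.93, 10.13 and 10.08 at day 8, and 10.99, 11.37 and 11.41 at day 13. Its highest middle array, 10.47 at day 6, stayed below its lowest outer array, 10.81 at day 2.

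**Figure D3:**
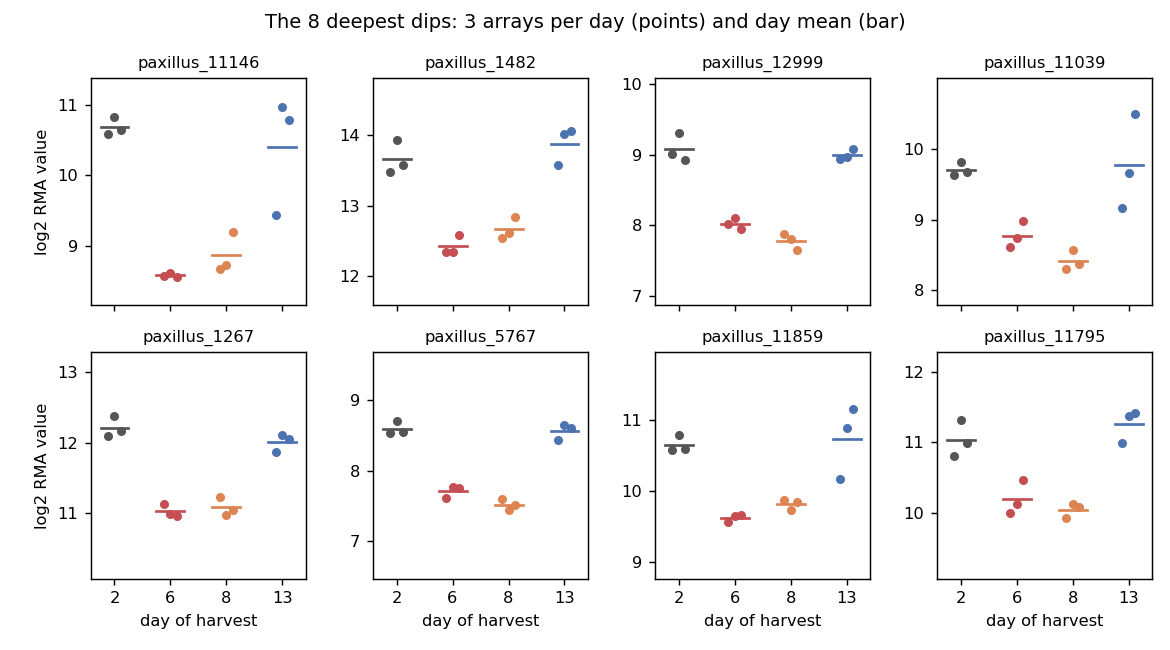
Log2 RMA values of the 8 deepest dips by day of harvest; points are the 3 arrays of a day, bars are day means, and every panel spans the same 3.2 log2 units around its own centre. In each panel the points of days 6 and 8 lie below those of days 2 and 13, and the day 13 points of paxillus_11146, paxillus_11039 and paxillus_11859 are the most scattered.

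Members were found at all levels of expression but were scarce among the most abundant sequences. By mean level over the 12 arrays, 21 members fell in the lowest quartile of all sequences, 29 in the second, 25 in the third and 9 in the highest. The median of the mean level was 10.97 for the members, 11.37 for all sequences and 10.91 for the mirror-image peak. The peak was spread differently, with 43, 48, 29 and 31 sequences in the same quartiles. Across the 84 members, depth and mean level had a Pearson's r of -0.29 and a Spearman's rho of -0.29. This is a description across sequences that share the same arrays.

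At the top of the range, paxillus_5891 had 13.86, 14.03 and 13.98 at day 2, 13.37, 13.29 and 13.63 at day 6, 13.48, 13.26 and 13.21 at day 8, and 13.93, 14.21 and 14.34 at day 13. The third most abundant member after paxillus_1482, paxillus_1156, had 13.28, 13.39 and 13.32 at day 2, 12.81, 12.76 and 12.73 at day 6, 12.68, 12.57 and 12.57 at day 8, and 13.31, 13.46 and 13.26 at day 13. It dipped by 0.57, with SDs of only 0.04 to 0.11 and day means at days 2 and 13 that were 0.01 apart. At the bottom, paxillus_13399 had 7.13, 6.87 and 6.24 at day 2, 6.30, 6.04 and 6.34 at day 6, 6.19, 6.16 and 6.00 at day 8, and 6.71, 6.25 and 7.30 at day 13. Its arrays overlapped between the middle and outer days, and its depth of 0.52 was about the size of its SDs of 0.46 at day 2 and 0.53 at day 13.

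paxillus_13506 is the only member measured with fewer than 10 probe pairs, and one of 11 such sequences on the array. It rests on 2 pairs. Its values were 8.80, 8.45 and 8.44 at day 2, 7.96, 7.51 and 7.74 at day 6, 7.46, 7.13 and 7.22 at day 8, and 8.06, 8.22 and 9.93 at day 13. The third day 13 array stood well above the other two, and the SD there, 1.04, was the largest of any member on any day, followed by the 0.83 of paxillus_11146.

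All 84 members stood above the background of the array. The measure of background was a random-sequence control feature made from 10000 probes. The smallest distance of a member above it was 1.51 log2 units, and the median member stayed at least 5.89 above it on all 12 arrays. Over all sequences this median was 6.22. Of the 12214 sequences, 11524 stayed at least 1 log2 unit above the control on all 12 arrays. The control was itself a little lower on the middle days, at 4.54 ± 0.05 on days 6 and 8 and 4.62 ± 0.06 on days 2 and 13 (SD, n = 6 each), a difference of -0.08. Over the members the median difference between the same 6 and 6 arrays was -0.75, and over all sequences it was 0.00. The part of the control's shift in the dips was not tested.

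The replicates of days 2 and 13 spread more than those of days 6 and 8. The members' SD had a median of 0.125 (day 2), 0.080 (day 6), 0.082 (day 8) and 0.159 (day 13). All sequences had medians of 0.129, 0.079, 0.077 and 0.139 on the same days. The mirror-image peak had larger SDs at day 2, with a median of 0.256, and at day 13, with 0.234.

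Single arrays stood out among the members, most of all on days 2 and 13. On day 2, the second array held the highest value of the day in 69 of the 84 members (82.1%), against 43.2% of all sequences. On day 13, the first array held the lowest value in 63 members (75%), against 33.7% of all sequences. The median deviation from the day mean was 0.12 on that day 2 array and -0.15 on that day 13 array over the members, and 0.02 and 0.00 over all sequences. The other arrays lay between -0.08 and 0.09. On day 6 the 3 arrays were highest in 33.3%, 31% and 35.7% of the members, against 29.4%, 34.4% and 36.2% of all sequences. They were lowest in 31%, 20.2% and 48.8% of the members, against 33.5%, 31.2% and 35.4%. On day 8 the first array was highest in 51.2% of the members (32.3% of all sequences). The second day 8 array was lowest in 47.6% (34.3%). These arrays also chose the members, so the shares are a description. Without the second day 2 array the rule gave 67 sequences, 64 of them members. Without the first day 13 array it gave 108, of which 79 were members.

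**Figure D4:**
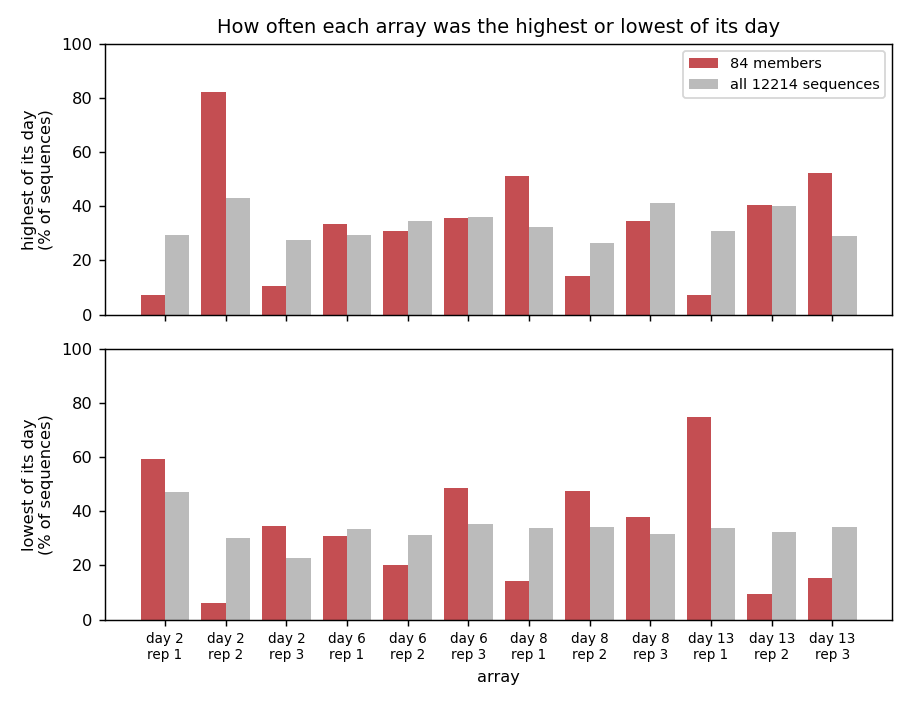
Bars give the percentage of the 84 members (red) and of all 12214 sequences (grey) for which each array held the highest value (upper panel) or the lowest value (lower panel) among the 3 arrays of its day. The second day 2 array was highest in 82.1% of the members and the first day 13 array lowest in 75%, where all sequences gave 43.2% and 33.7%.

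The step from day 6 to day 8 is the comparison of days whose direction the rule does not set. Its size is not wholly free, because the rule compares the higher of the 2 days, and a sequence with a large step between them had less room to qualify. Day 8 was the lower of the 2 days in 54 members and day 6 in 30. Day 8 minus day 6 had a median of -0.10 over the members, 0.00 over all sequences and 0.03 over the mirror-image peak. In 65 of the 84 members the step was smaller than 0.25 in either direction. The absolute step had a median of 0.117 over the members, 0.178 over all sequences and 0.171 over the mirror-image peak.

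In the limma fit, 8 of the 84 members (9.52%) changed between day 6 and day 8 at an adjusted p under 0.05, where 25.9% of all sequences did. Of the 8, 7 were lower at day 8 (11.6% of all sequences) and 1 was higher (14.3%). Of the 151 peak sequences, 2 were lower and 18 higher at day 8. Without the adjustment, 18 members were lower at a p under 0.05 (18.1% of all sequences) and 1 was higher (21.1%). The adjusted count moved with single arrays, as did that of all sequences. It was 2 without the first day 6 array (14.3% of all sequences), 2 without the second (15.1%), and 4, 3 and 3 without day 8 array 1, 2 or 3 (18.4%, 17.8% and 12.4%). Weighting the arrays gave 24 (28.6% of the members, 47.4% of all sequences), and fitting the 6 arrays of these days alone gave 23 (27.4% and 44.1%). If the 2 days were exchanged, every direction here would turn.

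**Figure D5:**
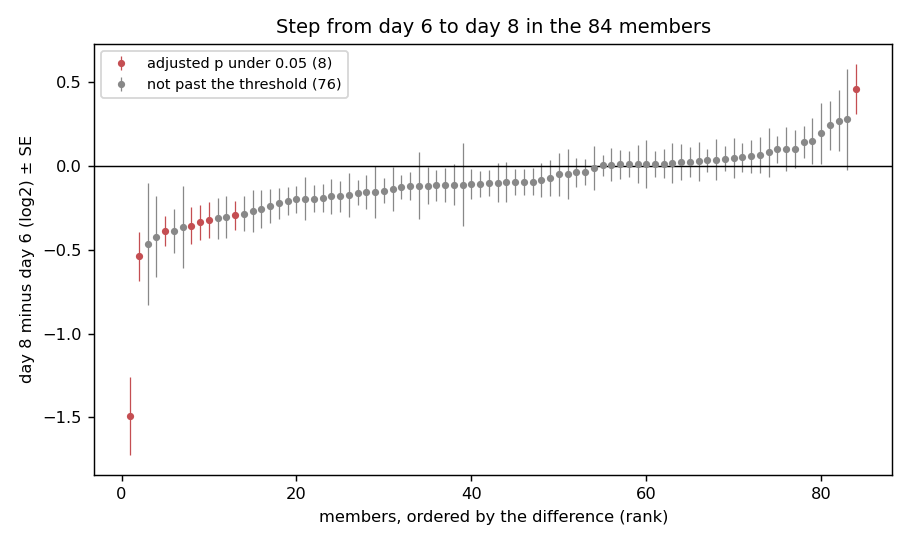
Day 8 mean minus day 6 mean of each of the 84 members in log2 units, ordered by size, with error bars of 1 standard error of the limma fit; the 8 members past an adjusted p of 0.05 are red. Most members lie within 0.25 of 0, 7 red points lie below 0 and 1 above, and paxillus_11576 stands apart at -1.49.

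The largest step was that of paxillus_11576. At day 8 its values were 10.03, 10.12 and 9.86, against 11.43, 11.72 and 11.34 at day 6. These arrays did not overlap, and the difference was -1.49 ± 0.23 (SE, limma adjusted p = 0.0013), 2.81-fold. Its day 2 arrays stood at 11.42, 12.51 and 12.49, and the first of them was within the range of the day 6 arrays. At day 13 it had 12.19, 11.98 and 11.87.

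paxillus_10080 and paxillus_9567 also deepened at day 8. paxillus_10080 had 9.98, 9.98 and 9.89 at day 8, against 10.52, 10.52 and 10.43 at day 6, a difference of -0.54 ± 0.14 (SE, limma adjusted p = 0.018). paxillus_9567 had 11.59, 11.40 and 11.61 at day 8, against 11.87, 12.04 and 11.86 at day 6, a difference of -0.39 ± 0.09 (SE, limma adjusted p = 0.0082). In both, the arrays of the 2 days did not overlap. paxillus_11919 had 10.56, 10.48 and 10.58 at day 8, against 10.83, 10.89 and 10.97 at day 6, a difference of -0.36 ± 0.11 (SE, limma adjusted p = 0.032). Its call was lost when any 1 of the 6 arrays was left out, with adjusted p-values of 0.0620, 0.0819, 0.0949, 0.0698, 0.0963 and 0.0765, and that of paxillus_10080 was lost without the first or second day 6 array or the third day 8 array, with 0.0611, 0.0586 and 0.0720.

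The single rise was that of paxillus_9470. It had 11.04, 11.12 and 11.41 at day 8, against 10.60, 10.54 and 11.05 at day 6, a difference of 0.46 ± 0.15 (SE, limma adjusted p = 0.042). The third day 6 array reached the lowest day 8 array, so the days overlapped. The call was lost without the third day 2 array, without the first or second day 6 array and without any 1 of the day 8 arrays, with adjusted p-values of 0.0511, 0.143, 0.155, 0.0505, 0.0727 and 0.175. The 3 other called members, paxillus_10800, paxillus_1295 and paxillus_4085, were lower at day 8 by 0.29 to 0.34, with no overlap between the arrays of the 2 days. paxillus_10800 had 9.89, 9.89 and 10.06 at day 8, against 10.24, 10.31 and 10.17 at day 6. paxillus_1295 had 10.57, 10.51 and 10.46 at day 8, against 10.84, 10.78 and 10.88 at day 6. paxillus_4085 had 11.65, 11.58 and 11.47 at day 8, against 11.97, 11.96 and 11.78 at day 6. All 3 were back above their day 6 arrays at day 13. The 8 calls as a set depended on single arrays. Without the first day 6 array 2 of them were kept, and without the second also 2. Without day 8 array 1, 2 or 3, 3 were kept each time. Which of these 3 members kept their calls is not given here.

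Few members lay next to each other in the numbering. Counted member by member, 162 numbers 1 above or 1 below were on the array, and 4 of these were themselves members. A number next to 2 members counts for each. The share is larger than the 0.688% that members make up of all sequences. It rests on 2 neighbouring pairs, each counted from both ends. paxillus_4190 and paxillus_4191 had nearly the same values on every array. paxillus_4190 had 11.27, 11.27 and 11.11 at day 2, 10.45, 10.42 and 10.39 at day 6, 10.39, 10.37 and 10.19 at day 8, and 11.35, 11.43 and 11.49 at day 13. The other sequence of the pair differed from it by at most 0.16 on any array, and they correlated at r = 0.993 over the 12 arrays. The rule itself raises the r between members, since it asks all of them for low means on the same days.

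paxillus_6336 and paxillus_6337 had similar profiles at different levels. paxillus_6336 had 10.14, 10.66 and 10.46 at day 2, 9.67, 9.69 and 9.76 at day 6, 9.60, 9.47 and 9.47 at day 8, and 10.17, 10.58 and 10.48 at day 13. It lay on average 0.45 below paxillus_6337, and the 2 correlated at r = 0.976 over the 12 arrays. This r is likewise raised by the rule, and no r of other members is set beside it here. Whether the sequences of a pair come from the same gene was not tested, and members are counted here as array sequences. The last quartile of the numbers on the array held the most members. The first to the last quartile held 21, 11, 18 and 34 members, against 45, 41, 23 and 42 of the mirror-image peak.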

How the data were processed

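Expression was measured on 12 subarrays of 1 NimbleGen chip, with 3 arrays for each of 4 days, grouped by the sample titles. The authors deposited log2 expression values, 1 per sequence and array. They come from RMA, per the submitters' processing notes (no version is named in the sources used here), with a whole-array option per the file headers. That they are in log2 follows from their range, 2.81 to 15.57. After RMA, a change can be read only against the rest of the array. The other deposited value used is the number of probe pairs per sequence.

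From these values the day means, SDs and the membership rule were computed. A linear model with 4 day means was fitted to the 12 arrays with lmFit, contrasts.fit and eBayes of limma 3.58.1 under R 4.3.3 (8 residual and 4.23 prior degrees of freedom), with Benjamini-Hochberg adjustment over 12214 sequences within each comparison and a threshold of 0.05. No filter on dim sequences was applied. Precision is limited by the 3 arrays per day. The model was checked on simulated data. The members and all rules for naming them were chosen with earlier results of these data known.

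Named sequences are the 8 deepest dips, the 3 highest and 3 lowest members by level, the largest changes from day 6 to day 8 among called members (up to 4 each way), the 3 nearest to each limit on either side, neighbouring members, and the 2 largest SDs. Gene lists could not be matched to the numbered sequences and none was tested. Alternatives were median centring, quantile normalization, a filter near background, the series-wide value table, exchange of days 6 and 8, the replicate number as a block, other variance settings and thresholds, and leaving out each array.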

Additional observations from a re-analysis of the deposited data

How the results depend on the processing

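Calls between days 6 and 8 are counted over the original 84 members, and the number of members was found anew under each setting. Against the original 8 calls, 7 lower and 1 higher at day 8 (25.9% of all sequences called), there were 24 with array weights (23 lower; 47.4% of all sequences), 23 in a fit of only the 6 arrays of days 6 and 8 (21 lower, 2 higher; 44.1%), 2 at an adjusted p under 0.01 (2 lower, 0 higher; 11.1%), and 0 when limma's treat tested against a 1.5-fold change (0 lower, 0 higher; 0.0819%), with 1 member at an unadjusted p under 0.05. Quantile normalization gave 11 lower (27.2% of all sequences called in either direction). With days 6 and 8 exchanged there were 7 higher and 1 lower, and by construction paxillus_11576 became 1.492, paxillus_10080 0.540, paxillus_9567 0.389, paxillus_11919 0.358 and paxillus_9470 -0.459. Leaving out 1 array gave 2 to 10 calls, 2 to 9 lower and 0 to 1 higher, while 12.4% to 29.5% of all sequences were called. The number of members was 458, 14 and 1 with depth limits of 0.25, 0.75 and 1, and 67 to 108 with 1 array left out. It was 82 with the median in place of the mean of 3 arrays, and 64 of these were members. Median depth stayed between 0.553 and 0.621, and day 13 minus day 2 between -0.031 and 0.135, with 1 array left out. The replicate block, a term for the replicate numbers of the titles, gave 8 calls, 7 of them among the original 8. Same-numbered arrays of different days deviated together in 5 of 18 pairs (r over 0.1, range -0.302 to 0.633). Arrays with different numbers did so in 10 of 36 pairs (range -0.622 to 0.404). Whether the numbers pair the arrays cannot be settled from this, since the deviations of the 3 arrays of a day depend on each other. The restrictions to 10 probe pairs and to 1 member per neighbouring pair were chosen after seeing the data and gave 83 and 82 members, with 9 and 8 calls.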
